A study of Mus musculus with 6 samples.

Results

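Oligosaccharyltransferase (OST) is the enzyme complex of the endoplasmic reticulum membrane that moves a preassembled sugar tree from its lipid carrier, dolichol, onto asparagine residues of new proteins. Messenger RNA of 10 of its subunits was followed in 6 RNA-seq libraries of microglia, the brain's own macrophages. The members were found by gene symbol (Rpn1, Rpn2, Ddost, Dad1, Stt3a, Stt3b, Ost4, Ostc, Krtcap2 and Magt1), and all 10 had a row in the deposited table of 4656 genes. Of the libraries, 3 came from Nus1fl/fl mice (Ctrl), in which Nus1 is flanked by recombination sites, and 3 from Nus1 conditional knockout mice (Nus1cKO, here cKO). Both groups are described as having received intraperitoneal tamoxifen, which switches on inducible Cre recombinases, on 5 consecutive days (100 mg/kg) starting at postnatal day 28, with perfusion 30 days after the last dose and microglia isolated by flow cytometry. A culture medium with serum is also described, and whether the sequenced cells had been cultured is not stated. No source used here gives the Cre driver, the sex of the mice, or whether Ctrl mice carried Cre, so an effect of Cre and of the loss of Nus1 cannot be told apart.

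Nus1 encodes a subunit of the enzyme that makes the dolichol chain, so it acts upstream of the OST reaction. In mammals OST exists in a pair of forms. The form built on STT3A sits at the protein translocation channel and glycosylates chains as they enter the reticulum, and OSTC and KRTCAP2 hold it there. The form built on STT3B acts mainly on sites that the other form has missed, with the help of an oxidoreductase subunit, MAGT1 or TUSC3. RPN1, RPN2, DDOST, DAD1, OST4 and TMEM258 are shared by both forms.

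The deposited table lists only genes that the authors had called between the genotypes (q under 0.05), which were 29.4% of the 15835 genes they tested. That all 10 subunits have a call in the authors' deposited table therefore follows from their having a row. Of 12 OST genes listed in all, Tusc3 and Tmem258 had no row, so their levels and changes are unknown here. The direction and size of each change, the levels and the ratios between subunits are what the rows can show. All 10 members passed the filter on low counts, with between 537 and 8019 reads in a library.

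In cKO, 7 subunits rose and 3 fell by edgeR's quasi-likelihood test (adjusted p under 0.05), beside 46.4% of the 4641 tested rows called higher and 50.2% called lower. Over all rows the calls split into 2155 higher and 2332 lower, and with DESeq2 into 2168 and 1510. The rises lay within the STT3A form (Stt3a, Ostc and Krtcap2), the STT3B partner Magt1 and the large shared subunits Rpn1, Rpn2 and Ddost. The falls were those of Ost4, Dad1 and, by a small amount, Stt3b. Log2 fold changes, cKO over Ctrl, ran from -0.42 for Ost4 to 0.39 for Magt1, with a median of 0.26, beside a median of -0.08 over all tested rows. These changes were modest, since 24.1% of tested rows had a larger absolute log2 fold change than any subunit. For each of the 10 subunits the 3 cKO libraries lay entirely above or entirely below the 3 Ctrl libraries by TPM, as they did in 97.6% of all tested rows, which the table selects on this same comparison. The exact two-sided permutation test of 3 against 3 then gave p = 0.1 for each, the smallest value this design allows. The labels call the replicates biological and name no animal, and every p here rests on the spread among these 6 libraries.

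**Figure D1:**
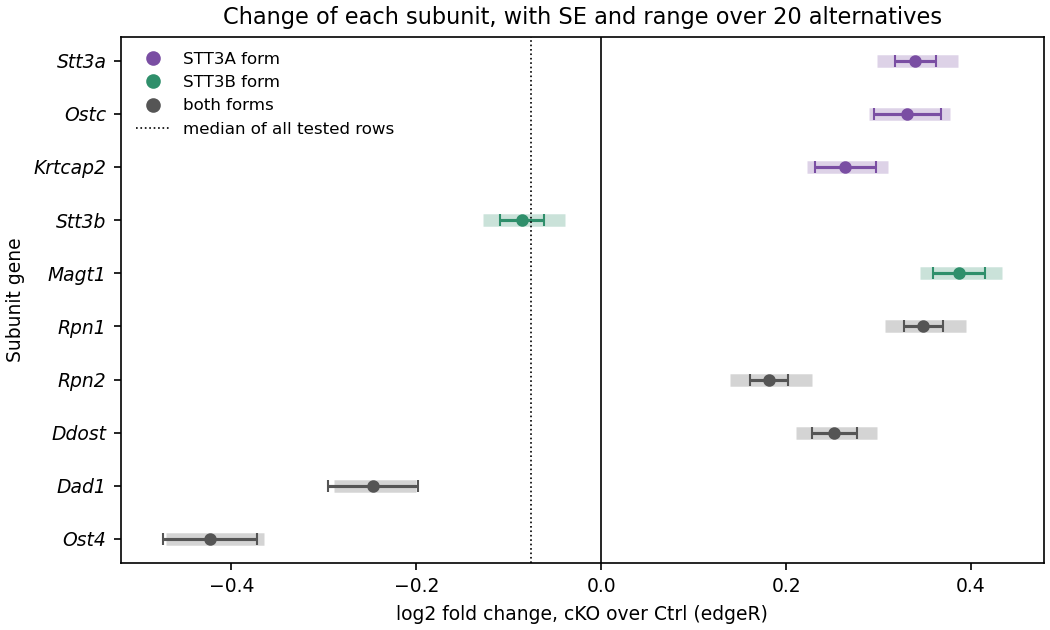
Log2 fold change of each subunit gene (cKO over Ctrl, edgeR on TMM-scaled counts of 3 against 3 libraries), as points with SE bars and coloured by the form of the complex; pale bars span the values under 20 other settings and the dotted line is the median of all tested rows (-0.08). Stt3a, Ostc, Krtcap2, Magt1, Rpn1, Rpn2 and Ddost lie right of 0 under every setting shown, Dad1 and Ost4 lie left of it, and Stt3b lies left of it beside the dotted line.

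The deposited rows held 10786150 to 11033144 reads of each library, a part of its unknown depth. Nus1 had 59.8 ± 0.902 TPM in Ctrl and 13.9 ± 0.252 TPM in cKO (SD, n = 3 each), a log2 fold change of -2.09, so each library matched its label. TPM is a length-scaled share of all the transcripts that the authors quantified. Of 12 microglial markers 6 had a row (Csf1r, Cx3cr1, Trem2, Fcrls, Itgam and C1qa), with a summed level of 488 to 521 TPM in Ctrl and 470.0 to 486 TPM in cKO. Within this sum the markers moved in opposite directions. Itgam rose by 0.73 on the log2 scale, from a mean of 61.6 to 100.8 TPM, while C1qa fell by 0.70 (74.3 to 45.4 TPM), Cx3cr1 by 0.52 (15.98 to 10.99 TPM) and Fcrls by 0.45 (12.6 to 9.11 TPM), and Trem2 and Csf1r were at -0.11 and -0.09. Markers of border-associated macrophages had 2 rows of 7 (Mrc1 and Ms4a7), at 42.7 to 54.1 TPM in Ctrl and 24.1 to 27.4 TPM in cKO. Monocyte, astrocyte and endothelial markers had 1 row each (Ly6c2, Aldh1l1 and Pecam1), none above 0.78 TPM in a library, and markers of neurons, oligodendrocytes and lymphocytes had 0. The part of these shifts in the values below was not tested. In bulk RNA, fewer cells of a type and less RNA per cell cannot be told apart.

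STT3A and STT3B are the alternative catalytic subunits, each carrying the active site that joins the sugar tree to asparagine. Their genes had almost the same level in Ctrl and separated in cKO. Stt3a (ENSMUSG00000032116, chromosome 9, 36640640 to 36678918, minus strand, mm39) had 101, 99.98 and 103 TPM in the Ctrl libraries and 129.8, 129 and 121 TPM in the cKO libraries. Every cKO library was thus above every Ctrl library, with cKO replicate 3 the lowest of its group. The log2 fold change was 0.34 ± 0.02 (SE, adjusted p = 1.7e-15), a fold of 1.27 on TMM-scaled counts, beside 0.30 in the authors' deposited table.

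Stt3b (ENSMUSG00000032437, chromosome 9, 115071538 to 115139536, minus strand, mm39) had 103, 105 and 101 TPM in Ctrl and 95.8, 98.9 and 94.2 TPM in cKO. The groups did not overlap, but the nearest libraries of the 2 genotypes, at 98.9 and 101 TPM, were close. The change was small, -0.09 ± 0.02 on the log2 scale (SE, adjusted p = 0.0035), a fold of 0.942, beside -0.13 in the authors' deposited table. This call ended with RLE size factors (log2 fold change -0.05, adjusted p = 0.16), upper-quartile scaling (-0.04, adjusted p = 0.38), DESeq2 (-0.05, adjusted p = 0.37) and without Ctrl replicate 2 (-0.07, adjusted p = 0.054). The difference between Stt3b and the median of all tested rows was -0.01.

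The promoter windows of both catalytic genes are shown because the genes differ in how they moved. Each runs from 250 bases before to 50 bases after a start site in RefSeq, here on the minus strand of GRCm38.p6, a different build from the mm39 of the gene positions. Capitals mark CCAAT and CCACG on either strand, the parts of the endoplasmic reticulum stress element. The Stt3a window is chr9:36767573-36767872 and the Stt3b window is chr9:115310419-115310718.
Stt3a: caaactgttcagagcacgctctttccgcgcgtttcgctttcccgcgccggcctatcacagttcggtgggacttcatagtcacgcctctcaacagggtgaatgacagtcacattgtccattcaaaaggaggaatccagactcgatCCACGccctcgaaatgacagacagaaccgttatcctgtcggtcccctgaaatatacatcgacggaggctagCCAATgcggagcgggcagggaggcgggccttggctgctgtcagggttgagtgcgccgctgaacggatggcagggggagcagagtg
Stt3b: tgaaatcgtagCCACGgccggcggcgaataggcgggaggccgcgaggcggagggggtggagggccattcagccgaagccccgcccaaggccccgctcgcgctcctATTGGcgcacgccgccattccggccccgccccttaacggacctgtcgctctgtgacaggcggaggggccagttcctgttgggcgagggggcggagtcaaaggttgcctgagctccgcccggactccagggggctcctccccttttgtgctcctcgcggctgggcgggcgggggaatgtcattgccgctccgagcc
In the Stt3a window CCACG begins at base 145 and CCAAT at base 216, counted from 1 at the 5′ end. In the Stt3b window CCACG begins at base 12 and CCAAT, on the opposite strand, at base 106.

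Within a library, the ratio of Stt3a to Stt3b needs no scaling between libraries. It was 0.980, 0.949 and 1.01 in Ctrl and 1.36, 1.31 and 1.29 in cKO, so the catalytic genes went from parity to an excess of Stt3a in every cKO library. The mean ratio rose from 0.981 ± 0.0328 to 1.32 ± 0.0350 (SD, n = 3 each), a difference of 0.42 on the log2 scale. The exact two-sided permutation test gave p = 0.1, again the smallest possible, and 1 ratio was tested. Stt3a was higher and Stt3b lower in every cKO library, and both rows were selected on this comparison. Separation of the ratio, and with it this p, followed from those levels, so the test adds no support of its own. The difference was 0.42 also on FPKM and on raw counts, and lay between 0.40 and 0.45 when each library was left out in turn.

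The STT3A partners moved with Stt3a. Ostc (ENSMUSG00000041084, chromosome 3, 130489566 to 130503093, minus strand, mm39), whose product bridges STT3A and the translocation channel, had 184, 169.7 and 173 TPM in Ctrl and 222, 225 and 209.65 TPM in cKO. Its groups did not overlap, and it rose by 0.33 ± 0.04 on the log2 scale (SE, adjusted p = 8.2e-10), or 1.26-fold. The ratio of Ostc to Stt3a was 1.73 ± 0.0737 in Ctrl and 1.73 ± 0.0135 in cKO, with overlapping libraries.

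Krtcap2 (ENSMUSG00000042747, chromosome 3, 89153201 to 89157036, plus strand, mm39) encodes the other STT3A-specific subunit. It had the highest level of the 10, at 626, 660.5 and 634 TPM in Ctrl and 836, 725 and 791 TPM in cKO. The cKO libraries were all higher but spread more widely, with replicate 2 the lowest. The log2 fold change was 0.26 ± 0.03 (SE, adjusted p = 2.1e-08). In cKO, though not in Ctrl, Krtcap2 reads were closer together than its TPM. The reads were 1508, 1519 and 1605 in Ctrl and 1868, 1824 and 1833 in cKO. Krtcap2 overlaps Trim46 on the opposite strand, by 344 bases in GENCODE M21 on GRCm38. Reads of such partners cannot be told apart if counting ignored strand, a setting that no source used here gives. Trim46 rose by 1.88 ± 0.17 on the log2 scale (SE, adjusted p = 1.7e-11), from a mean of 27.3 to 100.06 reads, while Krtcap2 went from a mean of 1544 to 1842 reads. The Krtcap2 window at chr3:89246223-89246522 (plus strand, GRCm38.p6, the more downstream of its 2 RefSeq start sites) is shown because it was the only member window with ERSE-II, a form of the stress element made of ATTGG, any 1 base and CCACG. Capitals again mark CCAAT and CCACG on either strand.
Krtcap2: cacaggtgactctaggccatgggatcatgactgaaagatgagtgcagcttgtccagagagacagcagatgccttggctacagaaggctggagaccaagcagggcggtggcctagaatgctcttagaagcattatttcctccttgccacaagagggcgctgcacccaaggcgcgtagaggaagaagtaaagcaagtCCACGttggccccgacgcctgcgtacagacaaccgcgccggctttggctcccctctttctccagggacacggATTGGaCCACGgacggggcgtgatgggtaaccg
The element begins at base 268, inside the transcribed part of this window.

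Magt1 (ENSMUSG00000031232, chromosome X, 105011690 to 105055408, minus strand, mm39), the thioredoxin-like oxidoreductase of the STT3B form, had the lowest level and the largest rise of the 10. It had 51.2, 49.2 and 49.97 TPM in Ctrl and 63.9, 67.1 and 64.1 TPM in cKO, and its groups stood well apart. The log2 fold change was 0.39 ± 0.03 (SE, adjusted p = 2.2e-14), or 1.31-fold, beside 0.35 in the authors' deposited table. Magt1 rose, while Stt3b, a part of the same form, was at -0.09, near the median of all tested rows (-0.08). The Stt3b call ended under 4 of 20 alternatives. The ratio of Magt1 to Stt3b went from 0.485 ± 0.0159 in Ctrl to 0.675 ± 0.00721 in cKO (SD, n = 3 each) with no overlap. Magt1 transcripts share repeat-like stretches of at most 205 bases (at least 90% identity) with transcripts of 312 other genes, so a small part of its reads may be shared.

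Of the shared subunits, the large ones rose. RPN1 (ribophorin I) binds new membrane proteins near the active site. Rpn1 (ENSMUSG00000030062, chromosome 6, 88061455 to 88082286, plus strand, mm39) had 146, 148 and 148 TPM in Ctrl and 185, 189 and 184 TPM in cKO. The libraries of each group were tight and the groups far apart. Its log2 fold change of 0.35 ± 0.02 (SE, adjusted p = 1.2e-16) had the smallest p of the 10. The ratio of Rpn1 to Stt3a was 1.46 ± 0.0248 in Ctrl and 1.47 ± 0.0460 in cKO, with overlapping libraries.

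Ddost (ENSMUSG00000028757, chromosome 4, 138032049 to 138039930, plus strand, mm39) encodes the OST48 subunit, part of the scaffold around the catalytic core. It had 226, 225 and 224 TPM in Ctrl and 267, 276 and 254 TPM in cKO. The Ctrl libraries were almost equal and all cKO libraries higher, with a log2 fold change of 0.25 ± 0.02 (SE, adjusted p = 3.0e-11). Rpn2 (ENSMUSG00000027642, chromosome 2, 157121018 to 157168238, plus strand, mm39), which encodes ribophorin II, had 276, 271 and 268 TPM in Ctrl and 303, 307 and 302 TPM in cKO. This was the smallest of the 7 rises, 0.18 ± 0.02 on the log2 scale (SE, adjusted p = 1.4e-09), or 1.13-fold. Relative to Rpn1, Rpn2 went from 1.84 ± 0.0372 to 1.64 ± 0.00882 and Ddost from 1.53 ± 0.0181 to 1.43 ± 0.0400 (SD, n = 3 each), neither with overlap between the genotypes.

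The small shared subunits Dad1 and Ost4 fell. DAD1, named defender against cell death after a hamster cell line that dies without it, is a small membrane subunit. Dad1 (ENSMUSG00000022174, chromosome 14, 54472942 to 54491524, mm39) had 179, 182 and 177 TPM in Ctrl and 151, 153 and 148 TPM in cKO. All cKO libraries were lower, and the log2 fold change was -0.25 ± 0.05 (SE, adjusted p = 5.9e-05), or 0.843-fold. The deposited table places Dad1 on the plus strand and RefSeq on the minus strand, a disagreement seen in 450 of 3823 rows with a RefSeq strand and in 1 of the 9 subunits with one.

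Ost4 (ENSMUSG00000038803, chromosome 5, 31063860 to 31065155, minus strand, mm39) encodes the smallest subunit, 37 residues long, which in yeast holds the oxidoreductase subunit to the catalytic one. It had 357, 343 and 328 TPM in Ctrl and 268, 269 and 256.5 TPM in cKO. Its fall was the largest of the 3, -0.42 ± 0.05 on the log2 scale (SE, adjusted p = 7.9e-09), or 0.746-fold, beside -0.46 in the authors' deposited table. Its reads, 764, 740 and 788 in Ctrl and 555, 606 and 537 in cKO, did not overlap either. Ost4 overlaps Agbl5 on the opposite strand by 1081 bases in GENCODE M21 on GRCm38, and Agbl5 had no row, so the share of Agbl5 reads in these counts is not known. A processed pseudogene, Gm19774, matched Ost4 over 114 bases at 98.2% identity. The Ost4 window, chr5:30907739-30908038 (minus strand, GRCm38.p6), is shown as that of the subunit that fell most. It holds CCACG at base 163, in capitals, and CCAAT on neither strand.
Ost4: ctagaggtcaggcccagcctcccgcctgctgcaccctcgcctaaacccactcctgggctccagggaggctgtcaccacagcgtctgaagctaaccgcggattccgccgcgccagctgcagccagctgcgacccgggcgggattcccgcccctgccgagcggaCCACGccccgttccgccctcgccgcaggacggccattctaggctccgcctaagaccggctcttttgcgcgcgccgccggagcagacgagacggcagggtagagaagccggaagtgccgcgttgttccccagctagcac

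**Figure D2:**
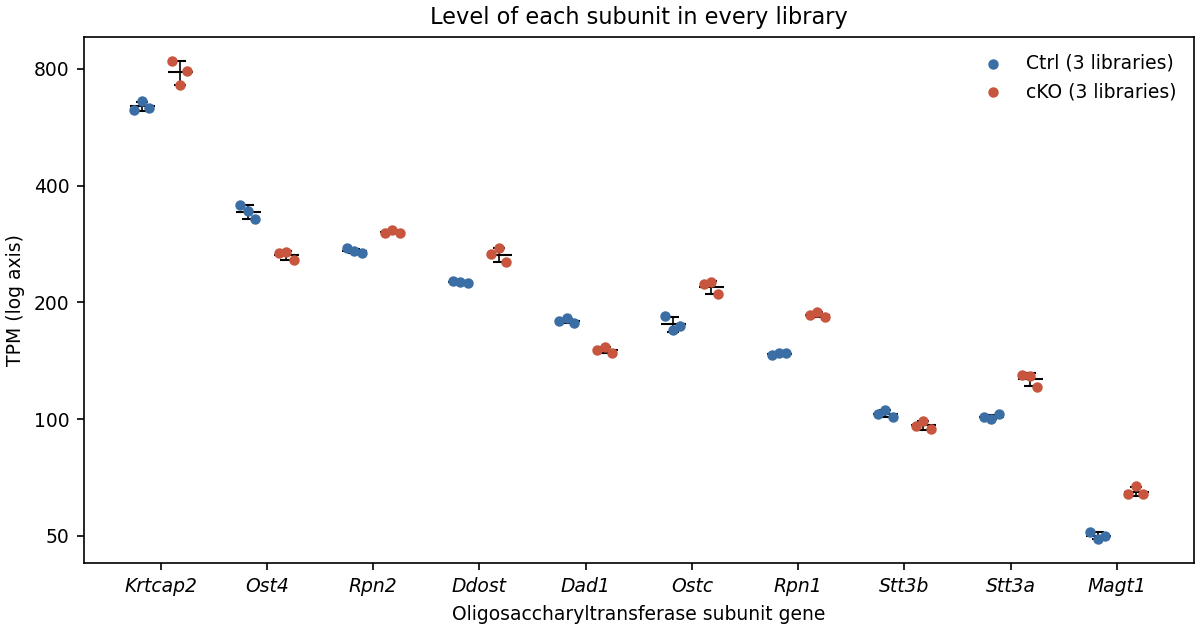
TPM of the 10 subunit genes in each of 3 Ctrl and 3 cKO libraries, on a log axis, with the mean and SD of each group in black and genes ordered by their Ctrl mean. Krtcap2 is highest and Magt1 lowest; Stt3a and Stt3b lie together near 100 TPM in Ctrl and apart in cKO, and Ost4 and Dad1 drop while Rpn1, Ddost and Ostc climb.

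Per length, the subunit transcripts covered a 12.8-fold range in Ctrl. The order in Ctrl was Krtcap2 (640.4 TPM), Ost4 (343), Rpn2 (272), Ddost (225), Dad1 (179), Ostc (176), Rpn1 (148), Stt3b (103), Stt3a (101) and Magt1 (50.1). Neighbours in that order did not overlap except Dad1 with Ostc and Stt3b with Stt3a. In cKO the order was Krtcap2 (784 TPM), Rpn2 (304), Ddost (266), Ost4 (264), Ostc (219), Rpn1 (186), Dad1 (151), Stt3a (127), Stt3b (96.3) and Magt1 (65.0). There Ddost and Ost4 alone overlapped. Ost4 had moved from the second to the fourth place, Dad1 from the fifth to the seventh, and Stt3a had passed Stt3b.

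The summed level of the 10 transcripts was 2250, 2254 and 2208 TPM in Ctrl and 2522, 2439 and 2426 TPM in cKO. In percentage points of the sum, Ost4 shifted most, from 15.3 ± 0.501% to 10.7 ± 0.247% (-4.57 points; SD, n = 3 each). Krtcap2 came next, from 28.6 ± 0.736% to 31.8 ± 1.84% (3.21 points), and then Dad1, from 8.02 ± 0.0594% to 6.13 ± 0.144% (-1.89 points). Relative to Rpn1, Ost4 went from 2.32 ± 0.110 to 1.42 ± 0.0257 and Dad1 from 1.22 ± 0.0142 to 0.811 ± 0.00439, so that Dad1 was above Rpn1 in every Ctrl library and below it in every cKO library.

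**Figure D3:**
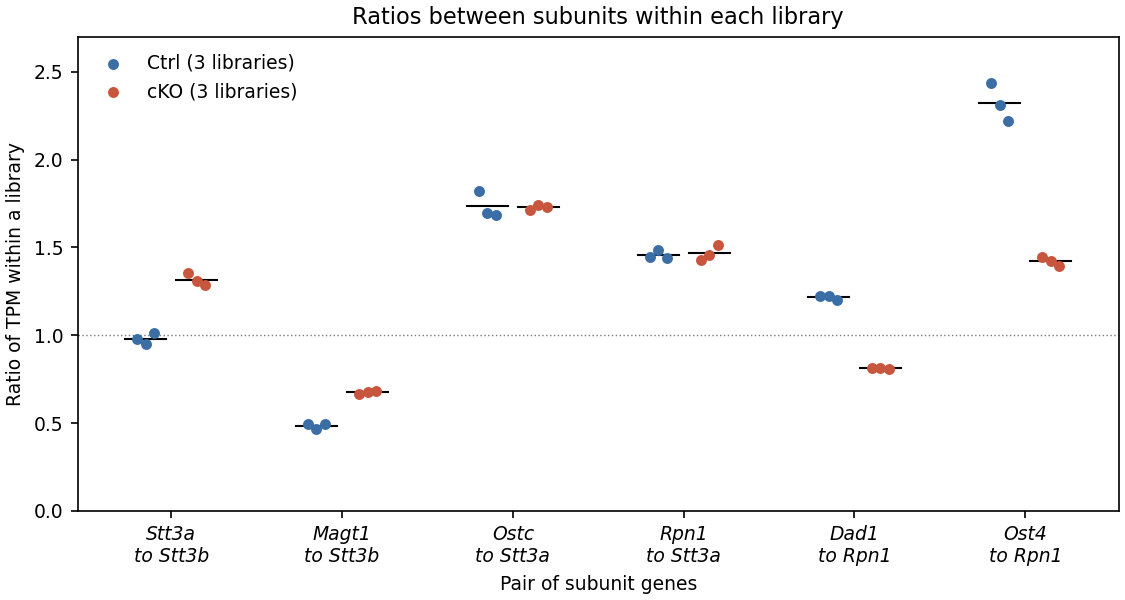
Ratio of TPM between pairs of subunit genes within each of 3 Ctrl and 3 cKO libraries, with group means as black lines; the dotted line marks a ratio of 1. Stt3a to Stt3b and Magt1 to Stt3b are higher in all cKO libraries, Ostc to Stt3a and Rpn1 to Stt3a overlap between the genotypes, and Dad1 to Rpn1 and Ost4 to Rpn1 are lower in all cKO libraries.

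TPM also depends on the transcript length assigned to a gene in each library. Taking reads over TPM, scaled by 467 genes with 1 transcript, as a length index set to 100 for the Ctrl mean, 7 subunits stayed between 99.0 and 101. Dad1 spanned 97.2 to 103, Krtcap2 93.1 to 105 and Ost4 92.8 to 107. For Krtcap2 and Ost4 the highest index, 105 and 107, was in Ctrl replicate 3 and the lowest, 93.1 and 92.8, in a cKO library. Tests on counts do not use these lengths, and limma on log2(TPM + 0.1) gave 0.29 for Krtcap2 and -0.37 for Ost4, beside 0.26 and -0.42 from counts.

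RefSeq windows were found for 9 of the 10 genes, 11 windows in all. CCAAT lay on either strand in 8 of the 11 windows, beside 37.4% of all 32851 windows and 39.0% of the windows of deposited genes. By gene these were 8 of the 9, all but Ost4. CCACG lay in 8 of the 11 windows, beside 32.8% of all windows and 48.7% of the windows of deposited genes. By gene these were 7 of the 9, all but Rpn2 and Magt1, whereas all shares given are per window. The 2 Krtcap2 windows overlap, and the CCACG at base 231 of the upstream window and base 196 of the downstream window is the same site. The full stress element, CCAAT and CCACG separated by 9 bases, was in 0 of the 11 windows and in 0.119% of all windows. ERSE-II, in the Krtcap2 window shown above, was in 12 of the 32851. Its letters overlap both shorter motifs. The core of the XBP1 element, TGACGTG, was in 0 of the 11 and in 2.01% of all windows. An ATF4 element, TGATGNAAN, was likewise in 0 of the 11 and in 3.95% of all windows. The interferon element core, GAAA, 2 bases and GAAA, was in those of Ddost and Stt3a and in 3.44% of all windows. Among windows of deposited genes, the full stress element was in 0.247% and ERSE-II in 0.103%. There the XBP1 core was in 3.29%, the ATF4 element in 2.86% and the interferon core in 4.01%. Motifs were searched on both strands, and a match is a description of letters. Member windows had a median of 58.0% G and C and a CpG observed to expected ratio of 0.885, beside 60.7% and 0.772 for windows of deposited genes.

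Neighbouring steps of the pathway were followed as gene lists. Protein translocation, which delivers the chains that OST modifies, had 6 of 12 listed genes with a row. Each of the 6 rose, at a median of 0.32 on the log2 scale. The translocating chain-associated protein Tram1 rose by 0.49 ± 0.03 (SE, adjusted p = 6.5e-18), from 92.0 to 128 TPM. Ssr3, a subunit of the translocon-associated protein complex, rose by 0.35, the channel subunit Sec61a1 by 0.28 and its partner Sec63 by 0.27. Of 13 genes of signal peptidase and signal recognition, 2 had a row and both rose, Spcs2 by 0.44 and Sec11c by 0.20. Genes of the multipass translocon, which inserts proteins with many membrane spans, had 4 rows of 7, of which Ccdc47 rose by 0.23 and Nomo1, Ncln and Rab5if fell by 0.27, 0.18 and 0.14.

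Downstream of OST, glucosidases and lectin chaperones trim and read the transferred sugar tree. Of 17 such genes 14 had a row, of which 13 rose and 1 fell, with a median of 0.27, close to the 0.26 of the subunits. The disulfide isomerase Pdia3 rose by 0.68 ± 0.02 (SE, adjusted p = 5.2e-28) and the lectin chaperone Calr by 0.66 ± 0.02 (adjusted p = 6.5e-28), from 1023 to 1603 TPM. Edem1 and Edem2, which mark misfolded glycoproteins for degradation, rose by 0.41 and 0.49. The exception, named after its value was seen, was the glucosidase Mogs, the first enzyme to trim the tree, at -0.21 ± 0.04 (SE, adjusted p = 2.5e-05). Upstream, 6 of 23 genes that build the tree on dolichol had a row, with 2 rises and 4 falls and a median of -0.18. Besides Nus1, the mannosyltransferases Alg12 and Alg2 rose by 1.12 and 0.34 and the dolichol kinase Dolk fell by 0.28. The falls of this list were 2 with upper-quartile scaling, with DESeq2, without Ctrl replicate 1 and without cKO replicate 1. No difference between these lists and the subunits was tested.

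**Figure D4:**
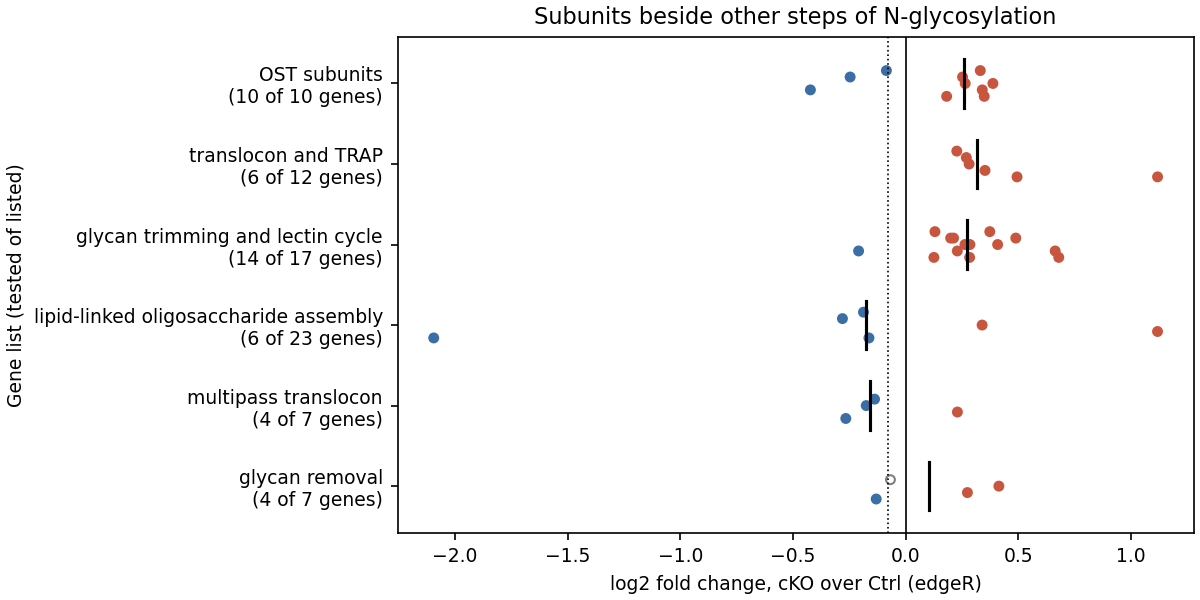
Log2 fold change (cKO over Ctrl, edgeR, 3 against 3 libraries) of each gene with a row in 6 lists, red where it rose, blue where it fell and open where it did not pass an adjusted p of 0.05; black bars are list medians and the dotted line the median of all tested rows. All 6 translocon genes and 13 of 14 trimming genes lie right of 0, while the subunits and the tree-building genes lie on both sides, with Nus1 at -2.09.

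By the annotation carried in the deposited table, 11 rows belong to the oligosaccharyltransferase complex. These are the 10 subunits and Trex1, a DNA exonuclease of the reticulum membrane, which rose by 0.45 ± 0.10 (SE, adjusted p = 0.00020), from 18.2 ± 0.367 to 24.6 ± 1.90 TPM (SD, n = 3 each). The table's N-glycan biosynthesis pathway held 8 rows besides the subunits, of which 4 rose and 4 fell, with a median of 0.02. Among them are genes of the lists above, such as Alg12, Alg2, Dolk and Mogs. The falls were 2 with RLE size factors, upper-quartile scaling, DESeq2 and without cKO replicate 1, while the rises stayed at 4. Its pathway of protein processing in the endoplasmic reticulum held 89 rows besides the subunits, of which 57 rose and 28 fell, with a median of 0.24. Tram1, Ssr3, Sec61a1, Sec63, Pdia3, Calr, Edem1, Edem2 and Mogs, given above, are among the 89. These falls ran from 19 with DESeq2 to 32 with the authors' size factors, while the rises stayed at 57. Over all tested rows 46.4% were called higher and 50.2% lower.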

How the data were processed

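RNA-seq measured mRNA in 6 libraries of primary microglia, grouped as Ctrl or cKO by their titles. The submitters' processing notes name Bowtie2 2.4.5, DESeq2 1.34.0 and mm39, and no source used here names the read counter or strand setting. Per the file headers, the authors' table gives expected (estimated) counts, FPKM, TPM and normalized counts (a signal scaled by 1 size factor per library), and, for the comparison by the authors, log2 fold changes, p-values and q-values. Of the deposited expected counts, which carry no normalization, 11.1% are not whole (tolerance 1e-06), and all were rounded. The deposited TPM values in these rows sum to 59.4% to 60.3% of the total. All 4656 rows have q under 0.05, and the q-values match a Benjamini-Hochberg adjustment over 15835 genes, so adjusted p-values were computed over 15835. Scaling and dispersion rest on rows selected on this comparison. Another 8 columns of averages were not used.

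Genotypes were compared by quasi-likelihood testing in edgeR 4.0.16 (under R 4.3.3) with TMM scaling and filterByExpr, which kept 4641 rows. The procedure was tested on simulated data in which most genes were unchanged. The deposited rows were all selected as changed, so that trial does not cover their scaling or their rate of false calls. Single values used exact permutation tests (SciPy 1.17.1). Libraries of a group differed by more than counting noise (mean chi-square per gene 1.31 to 2.18). The alternatives were other scalings and filters, DESeq2 1.42.0, limma 3.58.1, a replicate block, rounding up, adjustment over deposited rows alone and each library left out. Matches between transcripts of GENCODE M21 used BLAST+ 2.17.0, with at least 100 bases. Genes named are the 10 members, Nus1, up to 4 called genes with the smallest p of each of 8 other lists, and the 3 rows with at least 10 TPM nearest to Stt3a and Stt3b; Mogs, Gpaa1, Rad23b, Trim46, Trex1 and marker genes fall outside this rule. The members and lists were chosen with earlier results of these data known.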

Additional observations from a re-analysis of the deposited data

How the results depend on the processing

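Under 20 alternatives each, the direction of all 10 subunits held, and 9 of them kept their call. Stt3b lost it under 4, as given with its values, and ranged from -0.13 to -0.04. The share of all rows that kept direction and call was not counted. Under these alternatives 2121 to 2168 rows were called higher and 1510 to 2486 lower, in a table selected on this same comparison. The subunits' median log2 fold change was 0.29 with RLE size factors, 0.30 with upper-quartile scaling, 0.29 with DESeq2 and 0.22 with the authors' size factors, beside 0.26, and the median of all rows moved with it, to -0.04, -0.03, -0.04 and -0.12. Without single libraries the subunits' median lay between 0.25 and 0.27. Over all rows 2155 were called higher and 2332 lower, with 48.0% of calls higher, beside 2168 and 1510 with DESeq2, with 58.9% higher. Without single libraries 2126 to 2246 rows were called lower. The replicate numbers gave no sign of pairing the libraries (correlations across genes of 0.0577, -0.0778 and -0.0534 between same-numbered libraries). Between other-numbered libraries the correlations ran from -0.0581 to 0.0994. With 3 libraries in a group, this check cannot settle whether they were paired. The replicate block called 2155 rows higher and 2296 lower and kept all 10 subunits. For the ratio of Stt3a to Stt3b, sign flips within pairs gave an exact p of 0.25, the smallest possible. That p too followed from Stt3a being higher and Stt3b lower in every cKO library. Of the other named genes followed under the alternatives, Man2a1, Pigm, Zc3h18, Poldip2 and Parl lost their calls under some and none reversed. Gpaa1, Rad23b and the cell type markers were not followed under them.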

Other observations

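Other glycosylation routes that draw on dolichol-linked sugars were thinly covered. Of 22 genes of O-mannosylation and GPI anchoring 5 had a row, of which Pign and Piga, which build the GPI anchor, rose by 0.31 and 0.32, and Pomgnt1, which extends O-mannose sugars, fell by 0.32. Pigm was at -0.12 and Gpaa1 at -0.17. Of 20 Golgi enzymes of N-glycan processing 2 had a row. The sialyltransferase St6gal1 rose by 0.48 ± 0.04 (SE, edgeR adjusted p = 3.1e-12), from 17.9 to 24.5 TPM, and the mannosidase Man2a1 was at -0.08, a call that ended under 10 of 20 alternatives (adjusted p up to 0.902). Of 7 genes of glycan removal 4 had a row, of which Man2c1 rose by 0.27 and Fbxo6, which binds high-mannose sugars, by 0.41, while Vcp, which extracts proteins from the reticulum, fell by 0.13 and Rad23b was at -0.07 and did not pass.

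Across the 6 libraries, the rows with at least 10 TPM whose centred log2 TPM lay nearest to Stt3a were Ube2w, Nek9 and R3hdm2 (root mean square distance 0.0187, 0.0210 and 0.0213). Those nearest to Stt3b were Zc3h18, Poldip2 and Parl (0.0101, 0.0111 and 0.0115), among 3903 rows compared.

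By the longest coding sequence in GENCODE M21, the 4 shortest subunits were Ost4 (37 residues), Dad1 (113), Krtcap2 (136) and Ostc (149). Of these the first pair fell and the second pair rose. The remaining subunits ran from Magt1 (368) to Stt3b (823), of which Stt3b fell.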
